A study of Mus musculus with 9 samples.

Results

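Fibrillar collagens are the chains that wind into long triple helices and line up side by side as the fibrils of connective tissue. Col26a1 encodes a secreted protein with an EMI domain and short collagen-like stretches that does not build fibrils. The 10 genes described here are 9 fibrillar collagen genes (Col1a1, Col1a2, Col2a1, Col3a1, Col5a1, Col5a2, Col5a3, Col11a1 and Col27a1) and Col26a1. They were chosen by gene symbol among the 24138 loci of the expression table, with the differences between MUT and HET kidneys already known, so their values in that comparison are given as a description and without a test. All 10 symbols were found. Each gene has a single locus in the table.

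RNA was sequenced from whole mouse kidneys at E15.5, with 3 libraries of each of 3 genotypes. MUT kidneys were Foxd1GC/+;Ntn1fl/fl, HET kidneys were Foxd1GC/+;Ntn1fl/+ and WT kidneys were Ntn1fl/fl without Cre. The Foxd1 GFP-Cre allele (GC) replaces 1 Foxd1 allele and acts in Foxd1+ stromal progenitors and their descendants, so that floxed Ntn1, which encodes the secreted guidance cue netrin 1, can be lost in these cells. All kidneys came from 3 crosses of Ntn1fl/fl with Foxd1GC/+;Ntn1fl/+ mice and carry at least 1 floxed Ntn1 allele, on a C57Bl6/J background. Embryos of both sexes were used in the study, and the sex of each kidney is not given in the sources used here. MUT and HET differ in the number of floxed Ntn1 alleles. Both differ from WT in Foxd1 and Cre, and HET also in the number of floxed alleles, so that loss of Ntn1, the Foxd1 allele and Cre cannot be told apart in a comparison with WT. The sources do not state whether a replicate number stands for a cross, so p-values measure only the spread between these libraries. In whole kidney, a different share of collagen-producing cells and a different amount of collagen RNA per cell cannot be told apart.

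In the kidney, fibrillar collagens are made mainly by interstitial stromal cells, including those around vessels. Type I fibrils hold Col1a1 and Col1a2 chains, and type III is built of Col3a1 alone. Types V and XI are minor collagens that start fibrils and limit their width, and type II is the main collagen of cartilage. Type XXVII, encoded by Col27a1, is a fibrillar collagen with a shorter and interrupted helix, best known from cartilage.

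The coding sequences showed the division between the 9 fibrillar chains and Col26a1. In the longest coding transcript of each gene (GENCODE annotation of GRCm38, the assembly also called mm10), the longest uninterrupted run of codon triplets that open with a glycine codon was 337 to 344 triplets in 8 of the fibrillar genes. It was 217 triplets in Col27a1. Runs of 5 or more triplets numbered 3 in Col27a1, Col2a1 and Col5a1 and 2 in each of the other genes. In Col26a1 the longest run was 23 triplets, and runs of 5 or more triplets made up 23.3% of its 438 codons. In the fibrillar genes such runs made up 53.5% to 77.0% of the codons.

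The promoters of these genes held different short motifs. RefSeq promoter windows (GRCm38.p6, 250 bases before to 50 bases after the start site) were matched for 6 of the 10 genes: Col1a2, Col3a1, Col5a1, Col5a3, Col11a1 and Col27a1. Those of Col1a2, Col3a1 and Col5a1 are printed because these genes stand for the abundant type I chains, for the abundant chain with the smallest difference between MUT and HET, and for the minor chain with the largest. Capitals mark every occurrence of 3 short motifs or of their reverse complements. The first was TATAAA, known as the core of a promoter element near many start sites. The second was CCAAT, which NF-Y proteins are known to bind. The third was GGGCGG, which Sp1 and its relatives are known to bind. Each was searched on both strands, and no match overlapped another. All 3 windows lie on the plus strand, at chr6:4505368-4505667 (Col1a2), chr1:45311288-45311587 (Col3a1) and chr2:27886175-27886474 (Col5a1).
Col1a2: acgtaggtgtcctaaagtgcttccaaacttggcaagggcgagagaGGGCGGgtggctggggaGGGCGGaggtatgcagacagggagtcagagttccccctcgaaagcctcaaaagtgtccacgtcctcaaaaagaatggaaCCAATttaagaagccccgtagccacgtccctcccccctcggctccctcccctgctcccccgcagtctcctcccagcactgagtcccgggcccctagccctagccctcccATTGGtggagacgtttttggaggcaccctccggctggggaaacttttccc
Col3a1: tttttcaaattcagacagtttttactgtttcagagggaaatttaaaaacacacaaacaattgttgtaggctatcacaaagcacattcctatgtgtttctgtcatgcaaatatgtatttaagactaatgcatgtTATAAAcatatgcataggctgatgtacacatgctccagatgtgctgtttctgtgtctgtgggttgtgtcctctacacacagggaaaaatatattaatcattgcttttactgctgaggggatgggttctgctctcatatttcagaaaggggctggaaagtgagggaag
Col5a1: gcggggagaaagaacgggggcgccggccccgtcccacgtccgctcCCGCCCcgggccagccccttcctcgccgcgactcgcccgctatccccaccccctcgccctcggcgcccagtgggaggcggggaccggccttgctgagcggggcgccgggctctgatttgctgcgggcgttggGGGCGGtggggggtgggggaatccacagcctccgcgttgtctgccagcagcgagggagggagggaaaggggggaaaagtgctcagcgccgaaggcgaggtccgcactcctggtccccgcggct
The Col1a2 window held GGGCGG 205 and 188 bases before the RefSeq start and CCAAT 109 bases before it and, on the other strand, at that start itself. The Col1a2 locus of the expression table starts at 4505697, beyond the end of this window. The distances for Col1a2 therefore do not hold for the start of that locus. The Col3a1 window held only TATAAA, 117 bases before the start, and the Col5a1 window held only GGGCGG, 205 and 73 bases before it. Their GC contents were 61%, 37.7% and 75%, against a median of 52.67% over all promoters. Of the 6 windows, 5 held GGGCGG, 3 held CCAAT and 1 held TATAAA. Over all 32851 promoters these letters were found in 35.7%, 37.4% and 13.6%. These matches describe the letters in the window and were not tied to any factor.

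The targeted gene was measured first. Ntn1 (chr11:68209364-68386826) was at 26.1, 28.9 and 17.8 FPKM in the WT libraries, against 12.3, 12.02 and 16.5 FPKM in the HET libraries and 10.8, 16.5 and 11.04 FPKM in the MUT libraries, in the order of replicates. FPKM are fragments per kilobase of transcript scaled to the library, so levels of different genes can be set side by side. In whole-kidney FPKM, Ntn1 separated both Cre genotypes from WT but did not separate MUT from HET. The paper reports very little or no Ntn1 protein around the nephron progenitors of MUT kidneys. It also describes weaker Ntn1 expression in the proximal tubule. Whole-kidney Ntn1 levels therefore do not measure how far Ntn1 was lost in the stromal progenitors, and that loss was not tested here. Foxd1 lay below every WT library in all HET and MUT libraries, at 24.8, 22.5 and 24.3 FPKM in MUT, 21.7, 20.2 and 21.5 FPKM in HET and 33.7, 33.4 and 25.8 FPKM in WT. Every MUT library was above every HET library in Foxd1, as for 5.19% of the loci tested in that comparison.

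Some libraries stood apart. HET-2 held liver transcripts, with a summed level of 6 liver markers of 706 FPKM against 26.9 to 51.6 FPKM elsewhere. Its summed erythroid markers were also high (2766 FPKM against 1576 to 1927). That sum counts Hba-a1 and Hba-a2 separately though they hold the same values in every library. Hbb-y was not high in HET-2, at 34.0 FPKM against 75.6 FPKM in WT-2 and 70.2 FPKM in HET-3. HET-3 held 160.4 FPKM of 6 skeletal muscle markers against 5.89 to 14.2 FPKM in the others. Markers of the labelled tissue were present, with 6 nephron progenitor and epithelial markers summing to 238 to 354 FPKM. The 6 stroma markers summed to 169 to 192 FPKM in WT, 161 to 183 FPKM in HET and 171 to 192 FPKM in MUT, ranges that overlap. Foxd1, of which HET and MUT carry 1 replaced allele, is among these 6, so the sums also carry that difference in genotype. The 6 smooth muscle markers summed to 117 to 141 FPKM in WT, 140.4 to 192 FPKM in HET and 113 to 144 FPKM in MUT, highest in HET-2, and the 4 endothelial markers to 116 to 131, 106 to 119 and 109.9 to 134 FPKM. The part of these cell types in the collagen levels was not tested. The 8 cartilage markers summed to 21.3 to 24.0 FPKM in each library. Of these, Acan, Matn1, Matn3, Comp and Lect1 were under 1 FPKM on average, whereas Hapln1, Sox9 and Col9a1 averaged 8.15, 7.92 and 5.06 FPKM. Bone markers summed to 4.70 to 6.84 FPKM, with Ibsp, Bglap, Bglap2 and Dmp1 under 1 FPKM and Alpl and Sp7 at 4.19 and 1.31 FPKM on average. Adrenal markers summed to at most 1.04 FPKM. Total FPKM ranged from 453753 to 545598 per library, and FPKM do not tell how many reads a value rests on.

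The 10 genes fell into distinct levels, led by the interstitial collagens. Over the 9 libraries the mean was 249 FPKM for Col3a1, 210.0 FPKM for Col1a2 and 187 FPKM for Col1a1, which rank 266th, 333rd and 388th among all loci. Col26a1 followed at 39.9 FPKM, then Col5a1 and Col5a2 at 27.2 and 27.1 FPKM. Col2a1 (8.18 FPKM), Col27a1 (6.54 FPKM) and Col11a1 (5.15 FPKM) were low, and Col5a3 was at 1.10 FPKM. Neighbours in this order kept it in all 9 libraries except in 3 places: Col1a2 was above Col1a1 in 7 libraries, Col2a1 above Col27a1 in 7, and Col5a1 above Col5a2 in 3. Types I and III together made up 88.4% to 90.5% of the FPKM of the 9 fibrillar genes. The 10 genes together held from 0.112% of all FPKM in WT-3 to 0.198% in MUT-1.

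**Figure D1:**
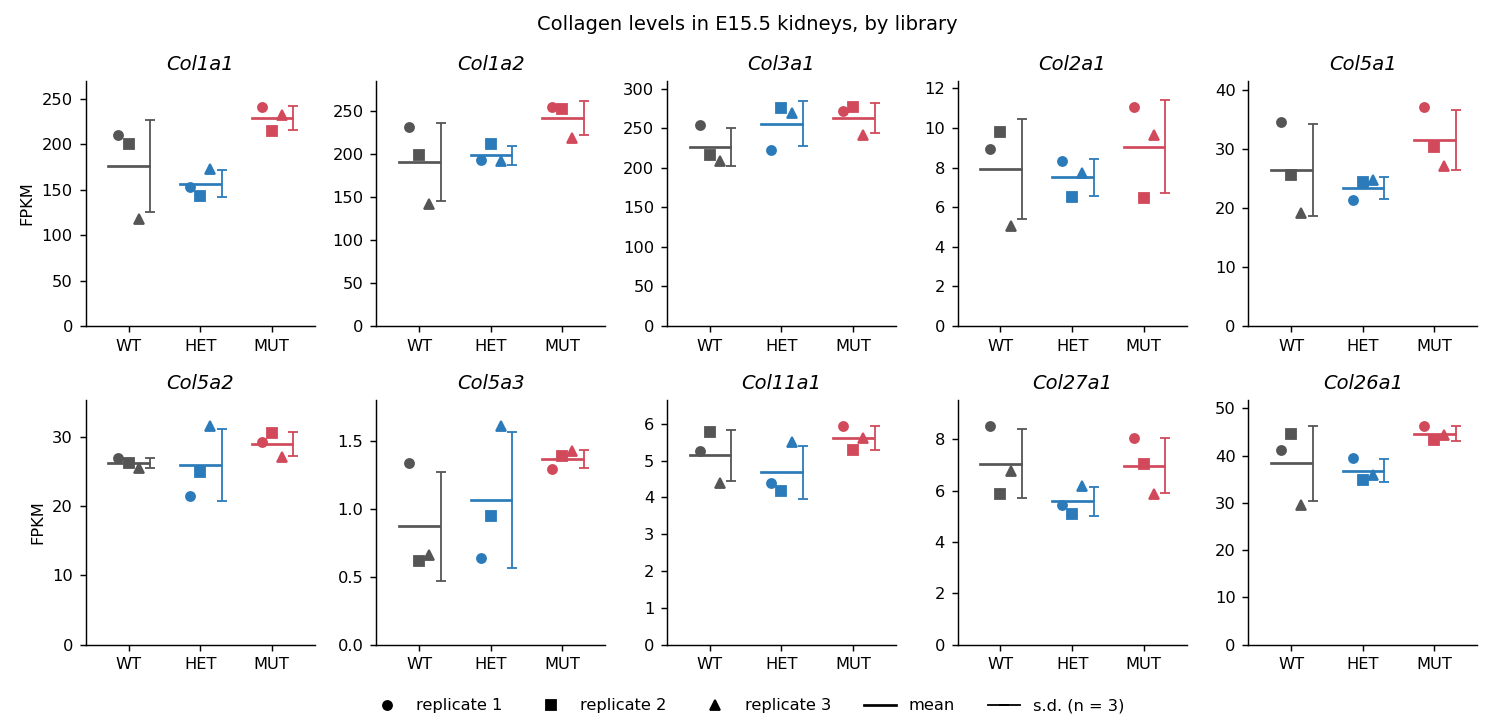
Level of each gene in FPKM (vertical axes, each from 0) in the WT, HET and MUT libraries, with symbols for replicates 1 to 3, horizontal lines for means and brackets for s.d. (n=3). Col1a1 in the 3 MUT libraries (214 to 240.4 FPKM) lies above all HET and all WT libraries, whereas Col3a1 overlaps among the genotypes.

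Col1a1, a chain of type I collagen, had the largest difference between MUT and HET in the set. Col1a1 (chr11:94936270-94951856) was at 240.4, 214 and 232 FPKM in MUT, 153, 143 and 173 FPKM in HET, and 210.1, 200.1 and 118 FPKM in WT, in the order of replicates 1 to 3. Every MUT library was above every HET and every WT library, and WT-3 was the lowest of all. The means were 229±13.4 FPKM in MUT, 156±14.9 FPKM in HET and 176±50.6 FPKM in WT (mean±s.d., n=3 each). The MUT mean was 1.46 times the HET mean, a log2 difference of 0.55 (standard error 0.13) on the log2(FPKM + 1) scale used for all differences here, on which changes of low genes come out too small.

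Col1a2 (chr6:4505697-4541543), the partner chain of type I, was at 254, 252 and 218 FPKM in MUT, 192, 211 and 191 FPKM in HET, and 231, 198 and 142 FPKM in WT. MUT lay above HET in every library but overlapped WT through WT-1. The MUT mean of 241±19.8 FPKM was 1.22 times the HET mean of 198±11.2 FPKM, with a log2 difference of 0.28 (standard error 0.13), and the WT mean was 190.3±45.1 FPKM. The difference was smaller in size for Col1a2 than for Col1a1.

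Type III collagen differed little between MUT and HET. Col3a1 (chr1:45311538-45349706) was at 271, 277 and 241 FPKM in MUT, 223, 276 and 269 FPKM in HET, and 254, 216 and 209 FPKM in WT. The 3 genotypes overlapped, and HET-1 was the only HET library below all MUT libraries. The means were 263±19.0, 256±28.8 and 227±24.4 FPKM, and the log2 difference between MUT and HET was 0.04 (standard error 0.14).

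The type V chains, which nucleate type I fibrils, were far less abundant than the type I and III chains. Col5a1 (chr2:27886425-28039510) was at 37.1, 30.3 and 27.1 FPKM in MUT, 21.3, 24.4 and 24.7 FPKM in HET, and 34.6, 25.6 and 19.2 FPKM in WT. MUT lay above HET without overlap, whereas WT spanned nearly the whole range of both. The MUT mean of 31.5±5.09 FPKM was 1.34 times the HET mean of 23.5±1.87 FPKM, with a log2 difference of 0.40 (standard error 0.13).

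Col5a2 (chr1:45374331-45503282), which lies next to Col3a1 on chromosome 1, was at 29.3, 30.5 and 27.1 FPKM in MUT, 21.4, 24.9 and 31.6 FPKM in HET, and 27.0, 26.3 and 25.5 FPKM in WT. Its WT libraries were the closest together of any gene in the set, with a coefficient of variation of 2.78%, and its HET libraries were spread by 19.9%. HET-3, the library with skeletal muscle transcripts, held the highest Col5a2 level of all 9 libraries, and the part of those transcripts in it was not tested. Col5a3 (chr9:20770050-20815034) did not reach 5 FPKM in any library and was therefore not tested: it was at 1.30 to 1.43 FPKM in MUT, 0.638 to 1.62 FPKM in HET and 0.619 to 1.34 FPKM in WT.

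The chains best known from cartilage were low in the kidney. Col2a1 (chr15:97975602-98004724) was at 11.05, 6.47 and 9.66 FPKM in MUT, 8.33, 6.50 and 7.73 FPKM in HET, and 8.95, 9.82 and 5.07 FPKM in WT, and the genotypes overlapped. Col11a1 (chr3:114030540-114220326), a type XI chain that can also join type V chains, was at 5.94, 5.29 and 5.62 FPKM in MUT, 4.39, 4.16 and 5.501 FPKM in HET, and 5.26, 5.78 and 4.40 FPKM in WT. Its HET mean of 4.68 FPKM was under the minimum of 5 FPKM, so Col11a1 entered each comparison with HET through the other genotype. Col27a1 (chr4:63215412-63334990) was at 8.04, 7.04 and 5.87 FPKM in MUT, 5.44, 5.10 and 6.20 FPKM in HET, and 8.53, 5.88 and 6.75 FPKM in WT. It was the gene whose HET mean stood lowest against WT, at 0.791 times the WT mean, though HET-3 overlapped WT-2.

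Col26a1 (chr5:136741764-136883107) was at 46.3, 43.2 and 44.4 FPKM in MUT, 39.5, 34.9 and 35.9 FPKM in HET, and 41.1, 44.6 and 29.5 FPKM in WT. MUT lay above HET without overlap, and WT-2 lay within the MUT range. The MUT libraries were close together, with a mean of 44.6±1.54 FPKM, 1.21 times the HET mean of 36.8±2.45 FPKM. The log2 difference was 0.27 (standard error 0.11).

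Across the set, the mean FPKM was higher in MUT than in HET for 10 of 10 genes, and the fitted log2 level for 9 of the 9 above the minimum. Col11a1 passed the minimum only through MUT, so it had to have the higher mean FPKM there. All MUT values exceeded all HET values for 4 of the 9 genes (Col1a1, Col1a2, Col5a1 and Col26a1). Of the 10081 loci whose mean reached 5 FPKM in either of these genotypes, 45.9% had a higher fitted level in MUT and 5.19% had all MUT libraries above all HET libraries. Because the genes were named with this comparison known, nothing is read from these counts. The median log2 difference of the 9 genes that passed the minimum was 0.27, beside -0.02 over all loci tested. Just inside the non-overlapping genes, the lowest MUT library of Col1a2 (218 FPKM) was above the highest HET library (211 FPKM), and just outside, the lowest MUT library of Col11a1 (5.29 FPKM) was below HET-3 (5.501 FPKM). Over all loci, limma called 0 of 10081 (0%) at an adjusted p under 0.05, with a smallest adjusted p of 0.738, and 636 (6.31%) had an unadjusted p under 0.05.

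The size of these differences moved with the HET libraries that were used and with GC content. The direction of the 4 separated genes could not turn when libraries were left out, because every MUT library lay above every HET library. With HET-1 as the only HET library, a choice made after seeing the data, the log2 difference was 0.57 for Col1a1, 0.32 for Col1a2, 0.53 for Col5a1 and 0.17 for Col26a1, and that for Col3a1 became 0.24. The transcripts of the set are richer in GC (median 58.5%) and longer (median 6024.5 bases) than those of all loci with at least 5 FPKM (50.3% and 3065 bases). After GC content and transcript length were regressed out of each library, the median log2 difference of the 9 genes between MUT and HET was 0.11 in place of 0.27, with 8 of 9 above 0. The difference was then 0.40 for Col1a1, 0.20 for Col1a2, 0.23 for Col5a1, 0.23 for Col26a1 and -0.02 for Col3a1. The same 4 genes kept all MUT libraries above all HET libraries after this correction, as did 8.50% of all loci, and 49.6% of all loci were then above 0.

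**Figure D2:**
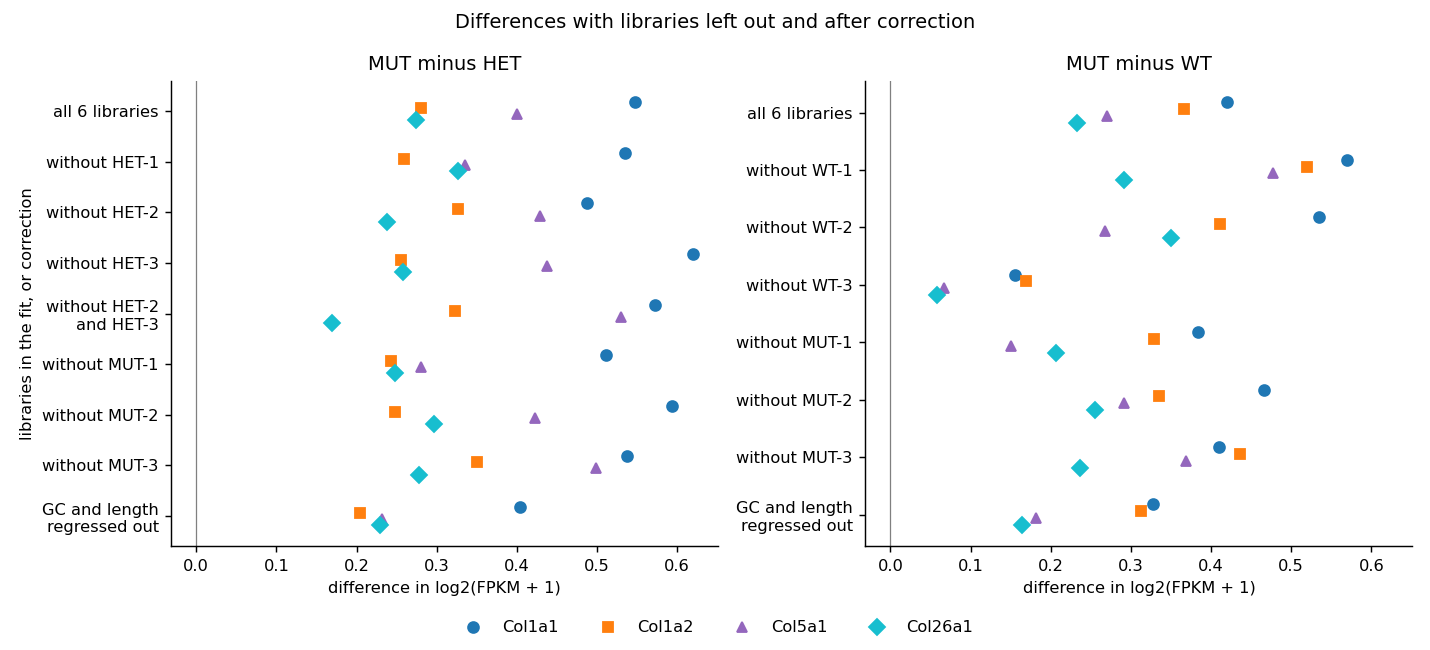
Difference in log2(FPKM + 1) (horizontal axes) of Col1a1, Col1a2, Col5a1 and Col26a1 between MUT and HET and between MUT and WT, with all 6 libraries, with libraries left out, and with GC content and length regressed out (rows, symbols offset vertically for each gene). Without WT-3 the difference of Col1a1 between MUT and WT is 0.16 in place of 0.42, and without HET-2 that between MUT and HET is 0.49 in place of 0.55.

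The comparison of MUT with WT, which did not choose the genes, shares its MUT libraries with the one above. The genes were named with these libraries' differences from HET known. The counts of direction and overlap against WT are therefore not independent of that choice, and nothing is read from them. None of the 9 genes that passed the minimum had an adjusted p under 0.05 (limma with Benjamini-Hochberg adjustment over 10096 loci, adjusted p = 0.999751 for each), and 0 had an unadjusted p under 0.05. Over all loci, 0% were called at the adjusted threshold and 0.644% at the unadjusted one, with a smallest adjusted p of 0.561. The fitted level was higher in MUT for 8 of the 9 genes, against 48.7% of all loci tested, and Col27a1 was the exception. All MUT libraries lay above all WT libraries for Col1a1 and Col5a2, against 1.32% of all loci. For Col5a2 this rested on 27.1 FPKM in MUT-3 against 27.0 FPKM in WT-1.

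The intervals show what these libraries could resolve. The log2 difference between MUT and WT was 0.42 for Col1a1 (95% interval -0.06 to 0.90) and 0.37 for Col1a2 (-0.06 to 0.79). It was 0.22 for Col3a1 (-0.11 to 0.55), 0.27 for Col5a1 (-0.18 to 0.72) and 0.13 for Col5a2 (-0.12 to 0.38). For Col26a1 it was 0.23 (-0.12 to 0.59), for Col27a1 -0.01 (-0.38 to 0.36), for Col2a1 0.18 (-0.35 to 0.72) and for Col11a1 0.11 (-0.22 to 0.44). Each interval includes 0 and also differences as large as those between MUT and HET.

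WT-3 decided much of this comparison. The median log2 difference over the 9 genes was 0.22 with all libraries and 0.07 without WT-3, and without it the difference was 0.16 for Col1a1, 0.17 for Col1a2, 0.07 for Col5a1, 0.06 for Col26a1 and -0.07 for Col2a1. Without WT-1 the difference of Col1a1 was 0.57. With GC content and length regressed out the median was 0.16, with 8 of 9 genes above 0 (51.0% of all loci). MUT then lay above WT without overlap for Col1a2, Col3a1 and Col5a1 (3.30% of all loci), and no longer for Col1a1 and Col5a2.

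HET and WT libraries overlapped for all 10 genes in the FPKM as deposited, whereas 2.15% of all loci had every HET library above every WT library and 1.06% every HET library below. The fitted level was higher in HET for 2 of the 9 genes tested (Col1a2 and Col3a1), against 52.4% of the 10105 loci. Col11a1 passed the minimum only through WT, so it had to have the lower mean FPKM in HET. The HET libraries were also part of the comparison known when the genes were named, so nothing is read from the counts of direction and overlap here. None of the 9 genes tested had an adjusted p under 0.05 (limma, adjusted p = 0.998166 for each), 0 had an unadjusted p under 0.05, and 0% of all loci were called, with 1.07% at an unadjusted p under 0.05. The log2 difference was -0.13 for Col1a1 (95% interval -0.58 to 0.32), 0.09 for Col1a2 (-0.29 to 0.47), 0.17 for Col3a1 (-0.13 to 0.48) and -0.13 for Col5a1 (-0.53 to 0.27). It was -0.28 for Col27a1 (-0.63 to 0.07) and -0.04 for Col26a1 (-0.38 to 0.30). The median of -0.04 over the 9 genes became -0.22 without WT-3 and 0.01 with GC content and length regressed out. After that correction 5 of 9 genes were higher in HET (51.8% of all loci), and Col3a1 lay above WT in every HET library (3.46% of all loci).

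**Figure D3:**
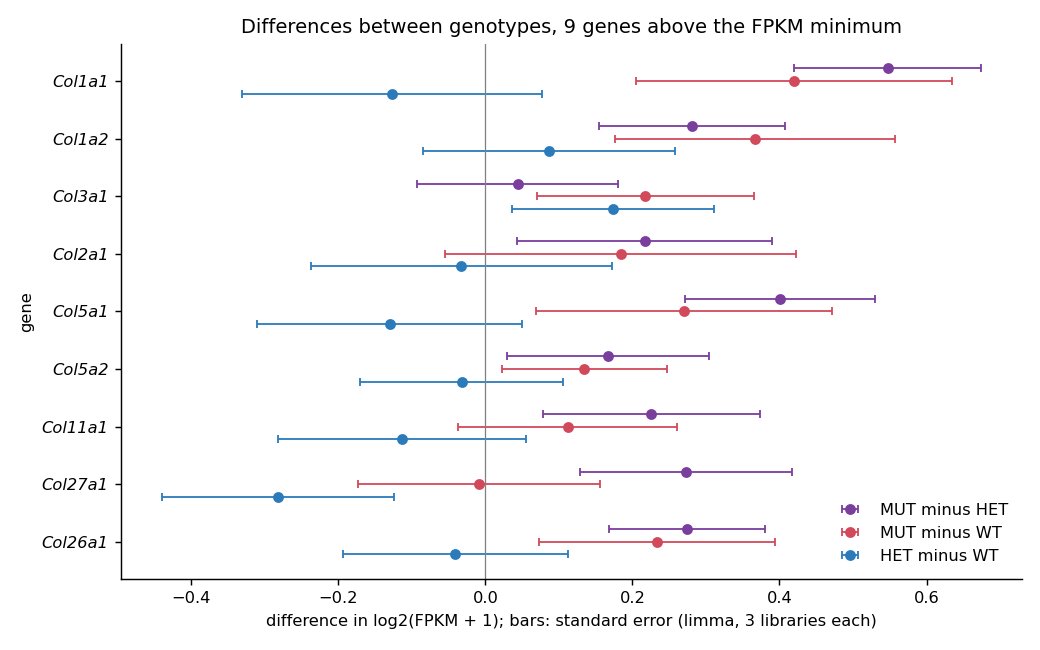
Difference in log2(FPKM + 1) (horizontal axis) of the 9 genes above the FPKM minimum (vertical axis) for MUT minus HET, MUT minus WT and HET minus WT, with points for the limma estimate and bars for its standard error (3 libraries each). MUT minus HET is largest for Col1a1 (0.55) and smallest for Col3a1 (0.04), and 7 of the 9 HET minus WT values lie below 0. Col11a1 passed the minimum only through MUT or WT in the comparisons with HET, so its direction in them was fixed by that minimum.

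The genes of the set tended to be high or low together in a library. WT-1 and MUT-1 held 10 of 10 genes above their mean over the 9 libraries, and WT-3 and HET-1 held 1 of 10. The median deviation of the 10 genes was -0.37 in WT-3, 0.15 in WT-1 and 0.25 in MUT-1 on the log2 scale, whereas the median over all loci stayed within -0.03 and 0.03 in every library. The medians of WT-1 and WT-3 lay further apart than those of any HET and any MUT library. All 45 pairs of genes correlated positively over the 9 libraries, with a median Pearson's r of 0.60, a lowest of 0.096 (Col5a2 with Col2a1) and a highest of 0.93 (Col26a1 with Col1a1). These correlations are descriptions over libraries that differ in genotype, and the genes share the library, and all except Col5a2 and Col11a1 a GC content above the median of the expressed loci.

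**Figure D4:**
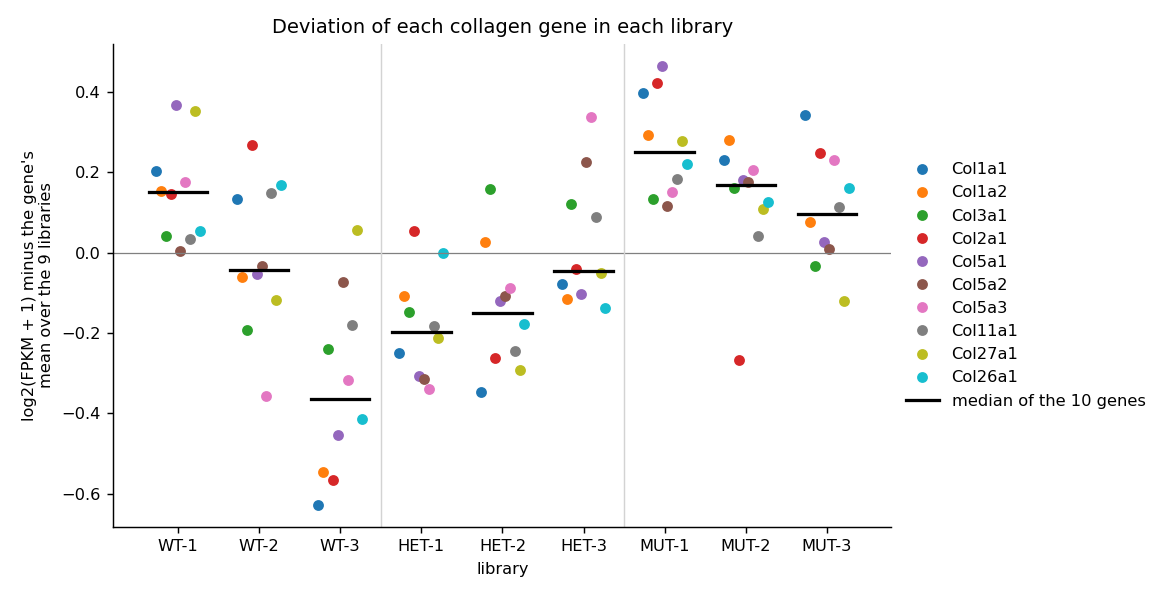
Deviation of each of the 10 genes from its own mean over the 9 libraries, in log2(FPKM + 1) (vertical axis), for each library (horizontal axis), with colours for genes and black bars for the median of the 10. The medians run from -0.37 in WT-3 to 0.25 in MUT-1, and the WT libraries span most of that range.

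Within a library, where the scaling of the library cancels, the level of Col1a1 was nearer to that of Col3a1 in MUT than in HET. Col3a1 was at 1.13, 1.29 and 1.04 times Col1a1 in MUT, 1.45, 1.92 and 1.56 times in HET, and 1.21, 1.08 and 1.78 times in WT. The ratio was lower in every MUT than in every HET library, a log2 difference of -0.51, which is a description. That difference was -0.42 with GC content and length regressed out and -0.34 with HET-1 as the only HET library. A two-sided exact permutation test gave p = 0.6 for MUT against WT and p = 0.3 for HET against WT at n=3 each, where 0.1 is the smallest p possible. The ratio of Col1a1 to Col1a2 was 0.947, 0.851 and 1.06 in MUT, 0.797, 0.679 and 0.903 in HET, and 0.911, 1.01 and 0.832 in WT. The genotypes overlapped in this ratio, with exact permutation p = 0.7 for MUT against WT and p = 0.2 for HET against WT. Col5a1 to Col5a2 ranged from 0.751 to 1.28 in WT, 0.781 to 0.995 in HET and 0.992 to 1.27 in MUT (exact permutation p = 0.5 and 1.0 for MUT and HET against WT). After Benjamini-Hochberg adjustment over these 6 exact permutation tests, p was 0.84 for 5 of them and 1 for Col5a1 to Col5a2 in HET against WT.

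**Figure D5:**
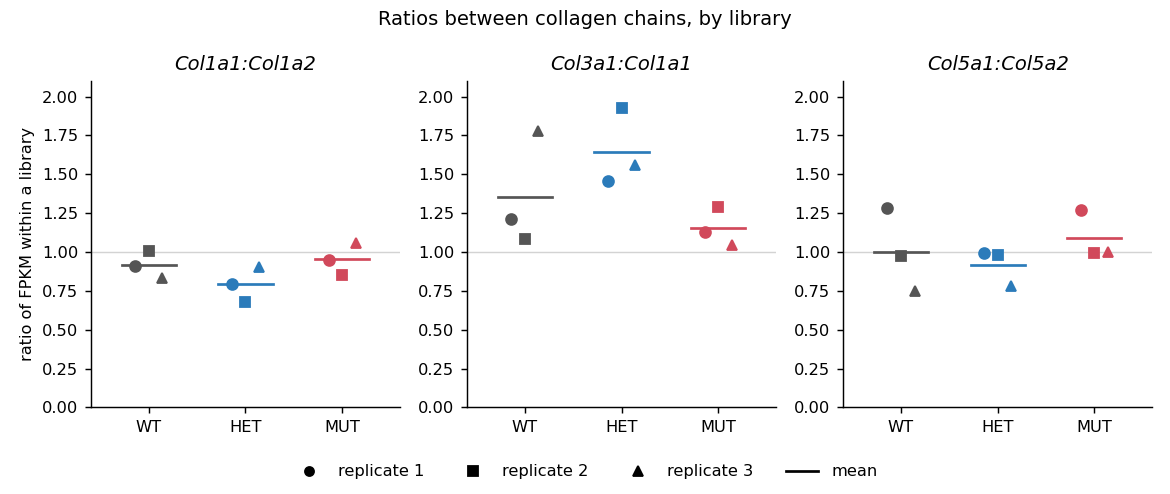
Ratio of FPKM between collagen chains within a library (vertical axes, from 0) in WT, HET and MUT kidneys, with symbols for replicates 1 to 3, coloured lines for means and a grey line at a ratio of 1. Col3a1 to Col1a1 is 1.04 to 1.29 in MUT and 1.45 to 1.92 in HET, while WT covers 1.08 to 1.78.

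The genes that make, bind, cut and sense collagen fibrils did not pass the adjusted test in any comparison. Lists of 87 such genes found in the table were grouped by role, and 59 passed the minimum of 5 FPKM in MUT against HET, 59 in MUT against WT and 56 in HET against WT. Limma called 0 of them in each, with 7, 1 and 2 at an unadjusted p under 0.05. Over all loci tested the shares at that unadjusted p were 6.31%, 0.644% and 1.07%. A gene that reached the minimum only in MUT had to be higher there, so directions are counted over the genes that reached it in both genotypes compared. Between MUT and HET, 33 of 55 had a higher and 22 a lower fitted level in MUT (median log2 difference 0.04, beside -0.02 over all loci), and between MUT and WT 42 of 55 were higher and 13 lower (median 0.07, beside -0.0035). The 4 genes left out were Col9a2, Fmod and Mmp16 in both, with Tram2 against HET and Col9a1 against WT.

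Enzymes and chaperones of procollagen inside the cell lay on both sides. Of 9 genes of prolyl hydroxylation, MUT lay above HET for 3 and below it for 6 (median -0.02). P4hb, a subunit of prolyl 4-hydroxylase, was at 351 to 378 FPKM in MUT and 358 to 387 FPKM in HET, and Ppib, a cyclophilin of the endoplasmic reticulum, at 355 to 496 FPKM in MUT and 444 to 521 FPKM in HET. Of 4 lysyl hydroxylation and glycosylation genes, 1 was higher and 3 lower, with log2 differences of 0.14 for the lysyl hydroxylase gene Plod2 and -0.11 for the galactosyltransferase gene Colgalt1. Serpinh1, the collagen chaperone HSP47, was at 651, 675 and 676 FPKM in MUT and 762, 741 and 676 FPKM in HET, a log2 difference of -0.12 (standard error 0.13, limma adjusted p = 0.819). Among 8 chaperone and export genes, the fitted level in MUT was above that in HET for 5 and below it for 3 (median 0.03), with 0.04 for Fkbp9, a peptidyl-prolyl isomerase.

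Genes that act on the collagen outside the cell were also mixed. Of 2 propeptide cleavage genes above the minimum, Bmp1, which encodes the procollagen C-proteinase, had a log2 difference of 0.01 between MUT and HET, and Pcolce, its enhancer, of -0.22 (standard error 0.14). Among 4 lysyl oxidases, which cross-link fibrils, MUT lay above HET for 3 and below it for 1 (median 0.11). Lox was at 32.7, 43.2 and 22.7 FPKM in MUT and 19.5, 27.2 and 27.5 FPKM in HET, which overlap, and Loxl2 differed by 0.14 on the log2 scale. Of 9 fibril-binding proteoglycan and glycoprotein genes, 5 were higher in MUT than in HET and 9 higher in MUT than in WT (medians 0.08 and 0.17, 0 called). Dcn, the proteoglycan decorin, was at 98.3 to 144 FPKM in MUT, 103 to 136 FPKM in HET and 78.4 to 99.5 FPKM in WT, and Sparc, a collagen-binding glycoprotein, at 273 to 296 FPKM in MUT, 279.8 to 346 FPKM in HET and 252 to 283 FPKM in WT.

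Of 9 fibril-associated collagens, which sit on the surface of fibrils, 5 passed the minimum in MUT against HET, as did 5 of 9 collagen receptors. Of the fibril-associated collagens that reached it in both genotypes compared, 3 of 4 were higher in MUT than in HET and 3 of 3 higher than in WT (medians 0.17 and 0.09, 0 called). Col16a1 was at 21.8, 21.4 and 16.2 FPKM in MUT and 14.2, 15.3 and 15.3 FPKM in HET, without overlap and with a log2 difference of 0.37 (standard error 0.12, limma adjusted p = 0.738). Col14a1 differed by 0.04 (standard error 0.13, limma adjusted p = 0.948). Of 5 collagen receptors, 5 were higher in MUT than in HET, 3 of 5 higher than in WT, and 0 of 5 higher in HET than in WT (medians 0.30, 0.04 and -0.11, 0 called, in comparisons that share libraries). Ddr1, a receptor tyrosine kinase for collagen, was at 46.9, 50.1 and 36.2 FPKM in MUT and 37.4, 36.2 and 32.8 FPKM in HET. Itgb1, the shared beta chain of the collagen-binding integrins, was at 176 to 208 FPKM in MUT and 157 to 193 FPKM in HET. Of 4 EMI-domain relatives of Col26a1, 3 were higher in MUT than in HET (median 0.05), with 0.03 for Emid1 and 0.12 for Emilin1. The remaining fibrillar genes, Col11a2 and Col24a1, were at 1.44 to 2.64 FPKM and 0.897 to 1.34 FPKM and were not tested.

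Genes of collagen degradation included the gene whose pattern was most like that of Col1a1. Of 6 such genes, 4 were higher in MUT than in HET (median 0.14, 0 called). Mmp14, a membrane-bound collagenase, was at 99.2, 89.6 and 93.8 FPKM in MUT, 71.7, 72.3 and 80.4 FPKM in HET, and 90.9, 90.0 and 62.3 FPKM in WT. MUT lay above HET without overlap, a log2 difference of 0.33 (standard error 0.11, limma adjusted p = 0.738), whereas Mmp2, a gelatinase, differed by -0.05 (standard error 0.12). Over the 9 libraries and among the 10164 loci whose mean reached 5 FPKM in any genotype, the loci most like Col1a1 were Mmp14 (Pearson's r = 0.99), Wdtc1 (0.97), Sox12 (0.96), Zfp553 (0.96) and Axin2 (0.96). Their transcripts had GC contents of 54.3% to 59.9%, above the median of 50.3%. The loci most like Col26a1 were Ppp2r2a (0.98), B4galnt4 (0.97), Pdgfc (0.97), Bmp7 (0.97) and Sufu (0.97), with GC contents of 42.4% to 59.2%. These likenesses describe 9 libraries of 3 genotypes, in which WT-3 and MUT-1 form the ends for both genes.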

How the data were processed

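Per the labels and the study's methods, the authors made stranded mRNA libraries (TruSeq) from whole kidneys, aligned reads with STAR to mm10, used cufflinks and cuffmerge for transcript assembly, and CuffDiff for the deposited FPKM. Versions and the annotation are not given in the sources used here. The authors' mean columns were not used. Read numbers are unknown, so precision rests on the spread of 3 libraries per genotype.

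Loci whose mean reached 5 FPKM in at least 1 of the genotypes compared entered limma 3.58.1 (R 4.3.3) as log2(FPKM + 1), with lmFit and eBayes with a trend, two-sided, with Benjamini-Hochberg adjustment over all loci and a threshold of 0.05. Each fit held only the 6 libraries compared. Ratios were tested by exact permutation over libraries. GC content and transcript length came from GENCODE for GRCm38, and were regressed out by splines with 5 degrees of freedom. Tables were made with Python 3.11.15. The limma fit was tested on simulated data, for MUT against WT only, and the other steps were not.

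The 10 genes and the lists were chosen with earlier results of these data known. Besides them, the 2 genes of each list with the highest mean FPKM, Ntn1, Foxd1 and the 5 loci most correlated with Col1a1 and with Col26a1 are named. Alternatives were other pseudocounts (0.1 and 3), other minimums (1 FPKM or none), quantile and median-ratio rescaling, a replicate block, 1 fit of all 9 libraries, no trend, the GC and length correction, and each library left out.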

Additional observations from a re-analysis of the deposited data

How the results depend on the processing

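None of the genes tested passed the adjusted threshold in MUT against WT or HET against WT under any alternative run (limma). The replicate number as a block left 0 loci called in each comparison. It gave 494, 201 and 233 loci at an unadjusted p under 0.05 for MUT against HET, MUT against WT and HET against WT. Without the block these were 636, 65 and 108 loci. Same-numbered libraries did not deviate together on average (mean r = -0.02 over 9 pairs, 2 of them over 0.1), and the numbers were not taken as pairs. WT-1 and MUT-1 did deviate together (r = 0.55), while different-numbered pairs ran from -0.55 to 0.48. The standard error of Col5a1 in MUT against WT was 0.11 with the block and 0.20 without it. That of Col1a1 in MUT against HET was 0.17 with the block and 0.13 without it. With each library left out in turn, 0 to 3 loci were called in each comparison, in fits that leave 1 genotype with 2 libraries. With HET-1 as the only HET library, an alternative chosen after seeing the data that assumes it varies like the other group, 3 loci were called for MUT against HET and 48 for HET against WT. That alternative also turned the HET against WT log2 differences of Col3a1 (-0.018), Col2a1 (0.10), Col26a1 (0.063), the untested Col5a3 (-0.17) and the ratio of Col5a1 to Col5a2 (0.023). For MUT against WT, Col27a1 turned to 0.0033 with median-ratio and 0.0025 with quantile rescaling. For HET against WT, Col2a1 turned to 0.0030 with quantile normalisation and 0.033 with GC content and length regressed out (with and without the block), and that correction turned Col5a2 to 0.064 and Col11a1 to 0.013. Leaving out 1 library turned the sign of MUT against WT for Col2a1 (-0.073 to 0.39) and Col27a1 (-0.12 to 0.12), and of HET against WT for Col1a1 (-0.39 to 0.022), Col1a2 (-0.11 to 0.24), Col2a1 (-0.29 to 0.13), Col5a1 (-0.33 to 0.076), Col5a2 (-0.18 to 0.092), Col26a1 (-0.22 to 0.076) and the untested Col5a3 (-0.047 to 0.31), and of the described MUT against HET difference of Col3a1 (-0.052 to 0.10). It also turned the ratios of Col1a1 to Col1a2 (-0.026 to 0.13), Col3a1 to Col1a1 (-0.35 to 0.0075) and Col5a1 to Col5a2 (-0.050 to 0.34) for MUT against WT, and of Col5a1 to Col5a2 for HET against WT (-0.29 to 0.094). The cause of these turns was not tested.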

Other observations

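Genes of the extracellular matrix did not all peak in the same library. The genes in this paragraph were chosen after their values were seen. Fn1, the matrix glycoprotein fibronectin, Mrc2, an endocytic collagen receptor, and Mmp15, a membrane-bound matrix protease, were like Col1a1 in having the lowest level of the 9 libraries in WT-3 (55.9, 14.2 and 8.21 FPKM) and the highest in MUT-1 (102.6, 24.3 and 17.0 FPKM). Several genes whose products bind fibrils peaked in MUT-2 instead. Lum, the proteoglycan lumican, was at 53.2 FPKM there against 25.8 to 47.2 FPKM in the other libraries, Ogn at 62.3 FPKM against 24.8 to 40.3 FPKM, Aspn at 15.6 FPKM against 4.90 to 9.72 FPKM, and Lox at 43.2 FPKM against 19.0 to 36.5 FPKM. In MUT-2, Col1a1 was the lowest of the 3 MUT libraries, at 214 FPKM.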
